A study of Mus musculus with 41 samples.

Results

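The DNA of 14 mouse mesotheliomas was examined along the 19 autosomes, to ask how much of the genome was gained or lost in each tumor and which chromosomes recurred. The 14 tumors were taken as they stand in the deposited copy number data, 14 of the 41 samples of the series. By their labels all lacked Nf2 and Cdkn2ab. By the labels 10 were BNC tumors (Bap1-/-;Nf2-/-;Cdkn2ab-/-) and 4 were NC tumors (Nf2-/-;Cdkn2ab-/-), but the columns of values carry tumor numbers without a genotype, so the 14 were treated as 1 group and no BNC and NC values were set against each other. The tumors were induced by adenovirus expressing Cre from the CMV promoter, injected into the chest of mice of mixed background, so any cell the virus reached could recombine. In the Cdkn2ab allele Ink4a and Ink4b were already deleted in the germline and only p19Arf was conditional. Column names place 7 tumors at a site written RC, which the sources do not expand, 6 at a site written Eso and 1 (B28) at the diaphragm. B20 and B21 carry the same animal number, so the 14 tumors stem from 13 animals by these names.

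Mesothelioma arises from the mesothelium, the lining of the chest and abdominal cavities. It is a tumor driven mainly by loss of suppressor genes, among them BAP1, which encodes a deubiquitinase of histone H2A, NF2, whose product Merlin acts in the Hippo pathway, and CDKN2A, which encodes inhibitors of the cell cycle and of MDM2. Low-coverage sequencing counts reads in fixed stretches of the genome, and a stretch with an extra copy in part of the cells gives more reads than the same stretch of normal DNA.

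Each value is a deposited log2 value of a 20-kb bin, after the authors' correction for GC content and mappability. The paper describes log2 ratios to normal tail DNA, but names the deposited data log2 read counts. Once centred, a value is the log2 ratio of a bin to the median autosomal bin of its tumor. Values were centred on the median autosomal bin of the tumor, and medians were taken in 1-Mb windows, usually of 49 bins, which gave 2399 windows with a value in every tumor. A window was called gained at 0.2 or above and lost at -0.2 or below. In diploid tissue 0.2 equals 1 extra copy in 29.7% of the cells and -0.2 equals 1 lost copy in 25.9%. The share of tumor cells and their ploidy were not measured, so these shares only translate the scale. Raw read numbers cannot be read from the scaled values, so depth is unknown. The noise between neighbouring bins was 0.11 to 0.16 (SD per bin) and that between neighbouring windows 0.025 to 0.039, highest in B5 on both scales. No column repeated another. As a check of the sign of the scale, chromosome X stood between -1.05 and -0.98 in 6 tumors and between -0.016 and 0.030 in the other 8, and the 6 tumors with low X had the higher Y values (-2.64 to -1.32, against -6.68 to -4.20). In male tissue, ratios to male tail DNA would show no shift of X or Y, and ratios to female tail DNA would show raised Y. Neither was read here, so the values are not taken as ratios to tail DNA.

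Few windows were called in any tumor. The altered share, gained and lost windows together, ranged from 0.417% in B13 to 3.001% in B28, with a median of 0.563%. In B28 72 windows were called, in B25 28, in B31 26 and in B5 22, while each of the other 10 tumors had between 10 and 16. Over all tumors 124 calls were gains and 155 were losses, which is 0.369% and 0.462% of the 33586 tumor-window pairs. A total of 2287 windows (95.3%) were called in no tumor. Much of this small load was shared. A set of 12 windows was called the same way in at least 7 tumors and took 143 of the 279 calls (51.3%). Without those windows the altered share fell to a median of 0.126%, and only B28 (2.60%), B31 (0.838%), B25 (0.796%) and B5 (0.461%) kept more than 0.3% of their windows. B5 had the highest noise between windows (0.039), and whether noise adds to its 11 remaining calls was not tested. The plot of altered shares shows both counts.

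**Figure D1:**
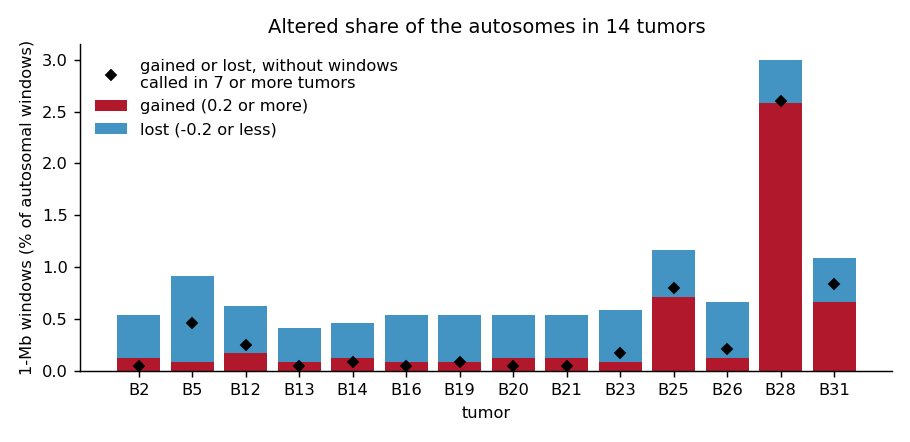
Share of the 2399 autosomal 1-Mb windows called gained (red) or lost (blue) in each of 14 tumors, in percent, with diamonds for the share left when windows called the same way in 7 or more tumors are left out. B28 reaches 3.001%, most of it gain, and 10 tumors hold between 10 and 16 called windows each.

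Gains lay mainly on 2 chromosomes. Of the 124 gained calls, 86 (69.4%) fell on chromosomes 17 and 19, and no window of either chromosome was called lost in any tumor. A further 28 were the shared stretch of chromosome 4 described below. In B28, 59 of 62 gained windows were on chromosome 19. In B25, 15 of 17 were on chromosome 17. B31 had 10 gained windows on chromosome 19 and 2 on chromosome 17 among 16. The other 11 tumors had 2 to 4 gained windows each and none on either chromosome. At most 4.31% of the windows of a chromosome were lost in any tumor.

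By the rule that at least 50% of a chromosome's windows must be called, only chromosome 19 of B28 was broadly gained, and no chromosome was broadly gained or broadly lost in 2 or more tumors. All 59 of its windows passed 0.2 in B28. The threshold decides this count. At 0.1 in place of 0.2, chromosome 19 was broadly gained in B13, B28 and B31 and chromosome 17 in B25 and B31, which makes 2 recurrent chromosomes, and no chromosome was broadly lost.

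Chromosome medians gave the same picture without a threshold. Of 266 pairs of a chromosome and a tumor, 249 (93.6%) had a median within 0.02 of 0, 5 were beyond 0.1 and 1 was beyond 0.2. All 5 were positive and lay on chromosomes 17 and 19. The SD of the 14 medians was 0.093 for chromosome 19 and 0.053 for chromosome 17, against 0.0036 to 0.014 for the other 17 chromosomes.

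**Figure D2:**
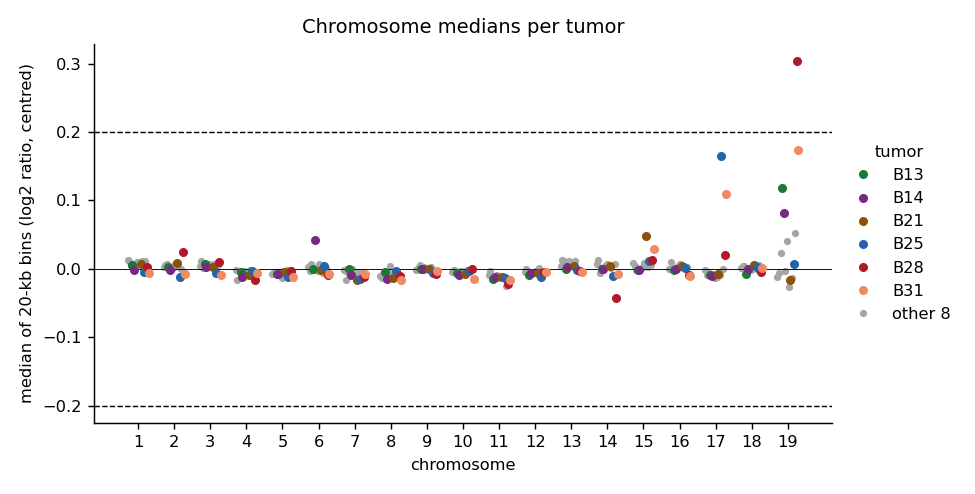
Median centred log2 ratio of each autosome (x axis) in each of 14 tumors, with 6 tumors in color and the other 8 in gray; dashed lines mark 0.2 and -0.2. Chromosome 19 of B28 is the only point past a line, and chromosomes 17 and 19 hold the 5 points beyond 0.1.

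Chromosome 19, the smallest mouse autosome, had a median log2 ratio of 0.30 in B28, 0.17 in B31, 0.12 in B13 and 0.081 in B14. B26 followed at 0.052, B19 at 0.041 and B12 at 0.023, and the lowest value was -0.026 in B20. Thus 10 tumors lay between -0.026 and 0.052, while B28 stood 0.13 above B31, more than the SD of 0.060 among the 13 others. On the scale of 1 extra copy in diploid cells the values of B28, B31, B13 and B14 equal 46.8%, 25.5%, 16.97% and 11.5% of the cells. The SD of a tumor's own medians over the 17 chromosomes other than 17 and 19 was 0.015 in B28, 0.010 in B31, 0.0054 in B13 and 0.013 in B14. Each of these 4 shifts was larger than that spread between other chromosomes of the same tumor. This does not set the 4 apart, since the SD was 0.0085 in B26, 0.0073 in B19 and 0.0065 in B12, also below their chromosome 19 values. On the low side, B20 had an SD of 0.0068 beside its -0.026.

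The shift spanned the chromosome. In B28 the medians of its 6 stretches of 10 Mb lay between 0.29 and 0.31. In B31 they lay between 0.14 and 0.19, and in B13 between 0.11 and 0.13. All 59 windows were above the median of the other 13 tumors in B28, B31 and B13, as were 55 of 59 in B14, 51 in B26 and 46 in B19. In B20 and B23 2 windows were. The windows of the death receptor gene Fas (0.34), of Men1 (0.30), and of Jak2 and Cd274, which share a window (0.33), were gained in B28.

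Chromosome 17 was raised in fewer tumors. Its median was 0.16 in B25 and 0.11 in B31, which equal 1 extra copy in 24.1% and 15.7% of diploid cells. B28 followed at 0.020, and the 12 tumors other than B25 and B31 lay between -0.014 and 0.020 with an SD of 0.0089. All 92 windows were above the median of the other tumors in B25 and again in B31. The 10 stretches of 10 Mb lay between 0.13 and 0.20 in B25 and between 0.077 and 0.14 in B31. The windows of Tsc2 (0.16), of Notch3 (0.17) and of Cdkn1a and Pim1, which share a window (0.11), were highest in B25 and stayed under the calling threshold. B31 was the tumor above 0.1 on both chromosomes, while B25 had a chromosome 19 median of 0.0076, and B13 had a chromosome 17 median of -0.0099.

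**Figure D3:**
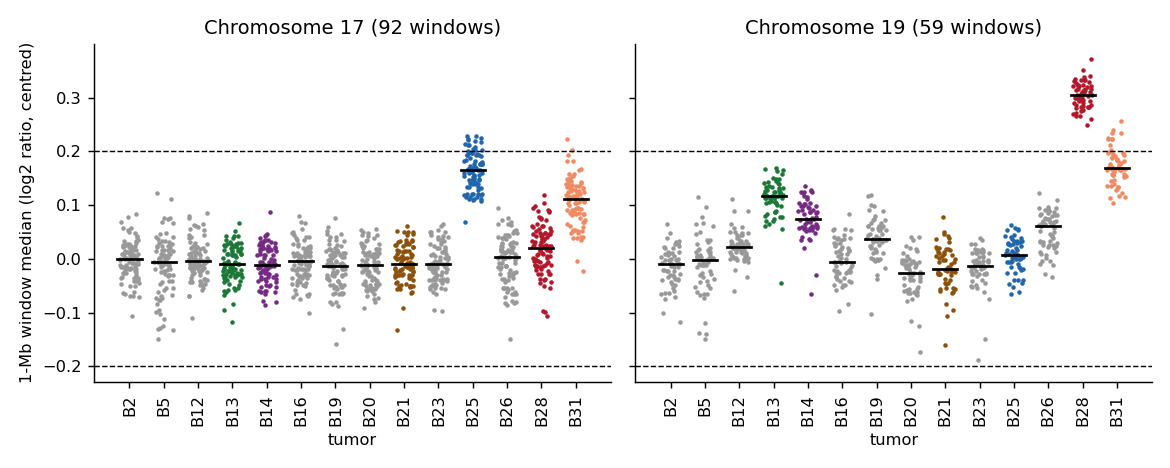
Centred log2 ratio of each 1-Mb window (points) of chromosome 17 (92 windows) and chromosome 19 (59 windows) in each of 14 tumors, with black bars at the median over windows and dashed lines at 0.2 and -0.2. Whole clouds of points are shifted in B25 and B31 on chromosome 17 and in B28, B31, B13 and B14 on chromosome 19.

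Smaller shifts were read over most windows of a chromosome in 1 or 2 tumors. Chromosome 15 was at 0.048 in B21, with 96 of 101 windows above the median of the other tumors, and at 0.028 in B31, with 86 of 101. Its 10-Mb stretches in B21 lay between 0.0011 and 0.072. Chromosome 6 was at 0.042 in B14, with 140 of 147 windows above the others and stretches between 0.028 and 0.056. Chromosome 14, which carries Bap1, was at -0.043 in B28, with 7 of 117 windows above the others and stretches between -0.076 and 0.0020, and was the lowest median of any chromosome in any tumor. B20, from the same animal as B21, had a chromosome 15 median of 0.0081 with 50 of 101 windows above the others, so the shift was read in 1 tumor of this animal.

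The 14 tumors were then tested together, chromosome by chromosome, against a median of 0 by a two-sided exact sign-flip permutation test over tumors with Benjamini-Hochberg adjustment over 19 chromosomes. The smallest p this test can give is 0.000122. Chromosome 19, despite the largest mean (0.052 ± 0.093, SD, n = 14), did not pass (adjusted p = 0.061, permutation test), with 8 tumors above and 6 below 0. Chromosome 17 did not pass either (mean 0.015 ± 0.053, adjusted p = 0.58, same permutation test), with 11 tumors below 0. The call on chromosome 19 turned on single tumors and on scaling: without B20 its adjusted p was 0.043, with B20 and B21 averaged 0.048, without centring 0.042, and after a regression on GC content 0.044.

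The chromosomes that did pass moved by far less. Chromosomes 4, 5, 7, 8, 10, 11 and 12 were lower (36.8% of the 19) and chromosomes 1 and 15 higher (10.5%), with means between -0.013 and 0.0091. The balance depended on the scaling: 6 were higher and 7 lower without centring, and 5 higher and 6 lower after GC regression, where chromosomes 4 and 7 no longer passed. Chromosome 4 also did not pass without the shared windows described below. Chromosome 11, home of Nf2 and Trp53, had the lowest mean (-0.013 ± 0.0054, SD, n = 14), and was below 0 in 14 of 14 tumors (adjusted p = 0.00046, permutation test). Chromosome 8 was below 0 in 13 of 14 (mean -0.0092 ± 0.0055, adjusted p = 0.00099, permutation test). The correlation of window values with GC content ran from -0.38 to 0.046 over tumors (2358 windows of at least 25 bins). Whether the offsets lie in the tumors, in the processing of the reads or in a reference cannot be told apart.

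Losses had another layout. They covered no large part of any chromosome, and 113 of the 155 lay in 10 windows shared by at least 7 tumors. Windows with fewer than 25 bins held 96 of the 155 losses, although such windows number 41 of 2399. The 12 shared windows formed 8 stretches.

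The shared loss with the most bins and the lowest value in a single tumor was on chromosome 4 (mm10, chr4:112000001-114000000), over the Skint genes. Skint1 encodes a protein of skin and thymic epithelium needed by a class of gamma delta T cells. The first 5 protein-coding genes there are Skint1, Skint4, Skint3, Skint9 and Skint2. The values fell at 3 separate levels. B25 and B31 were at 0.022 and 0.0086. In 9 tumors the values lay between -0.82 and -0.77. B2, B14 and B5 were at -2.03, -2.13 and -2.77.

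The Klra stretch of chromosome 6 (chr6:130000001-131000000) came next in number of bins. It holds Klra6, Klra4, Klra8, Klra9 and Klra7, receptors of natural killer cells that differ in number between mouse strains. It was lost in 11 tumors, with a median of -0.39, a lowest value of -0.61 in B25 and a highest of -0.031 in B12. B12, B13 and B14 were not called.

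On chromosome 12 (chr12:18000001-21000000) 3 neighbouring windows were lost in 12, 13 and 8 tumors. The stretch holds 3 protein-coding genes, 5730507C01Rik, Gm21863 and Asap2, and its median ran from -0.59 in B12 to 0.0015 in B20. B21, the other tumor of that animal, was the next highest at -0.058. On chromosome 7 (chr7:38000001-39000000) the window with Uri1, Ccne1, 1600014C10Rik, Plekhf1 and Pop4 was lost in 8 tumors, with 21 bins, a median of -0.28 and a lowest value of -0.58 in B20. Ccne1, which encodes cyclin E1, lies outside the low bins of this window. The 2 bins over it had medians of -0.058 and -0.034 and were at -0.2 or lower in 0 and 3 tumors, while the bins from chr7:38420001 on had medians of -2.38 or lower.

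The only shared gain was on chromosome 4 (chr4:146000001-148000000), in 14 of 14 tumors, between 0.50 in B16 and 0.81 in B5. It begins with the zinc finger genes Zfp987, Zfp600, Zfp992, Zfp981 and Zfp993, and just 21 bins had a value. The other 3 stretches rested on 1 or 2 bins each: chromosome 13 at chr13:120000001-121000000 (Gm36079, Gm21188, Gm20767, Gm21818 and Gm21762, lost in 14 tumors, -1.30 to -0.44), chromosome 2 at chr2:175000001-176000000 (Gm14444, Gm14393, Gm14399, Gm14443 and Gm14391, lost in 12, -1.74 to 0.11) and chromosome 7 at chr7:32000001-33000000 (Scgb1b10, Scgb2b11, Scgb1b11, Scgb2b12 and Scgb1b12, lost in 11, -0.86 to -0.12). The mice were of mixed background, and the values are not taken as ratios to tail DNA. The sources also do not say whether the tail DNA came from the same animals. An inherited difference from mm10, an effect of read mapping and a change in the tumor cannot be told apart for any of the 8 stretches.

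**Figure D4:**
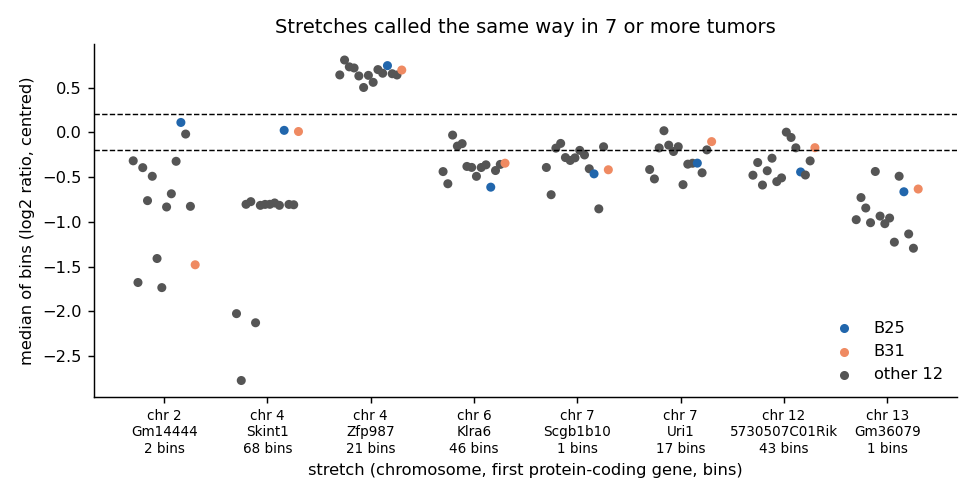
Median centred log2 ratio of each of 14 tumors (points, in order of tumor number from left to right within a stretch) at the 8 stretches called the same way in 7 or more tumors, named by chromosome, first protein-coding gene and number of bins with a value in all tumors; dashed lines mark 0.2 and -0.2. At the Skint stretch B25 and B31 lie near 0, 9 tumors near -0.8 and 3 tumors at -2.03 or lower.

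The 4 engineered genes were read next. The deleted parts are shorter than a 1-Mb window, and no window of Bap1, Nf2, Cdkn2a or Cdkn2b was called in any tumor, with values from -0.085 to 0.039. In single 20-kb bins the loss at Cdkn2b (chr4:89300001-89320000) was plain, with a median of -0.99, a lowest value of -1.66 in B21 and 13 of 14 tumors at -0.5 or lower. The bin over most of Cdkn2a (chr4:89280001-89300000) had a median of -0.63, with 11 tumors at -0.5 or lower. The values of B5 and B23 were near 0 in 1 bin each, against the label. B5 was at -0.065 over Cdkn2b and at -0.57 over Cdkn2a, and B23 was at -0.94 over Cdkn2b and at -0.054 over Cdkn2a. Over Cdkn2a B16 (-0.21) and B2 (-0.40) also stayed above -0.5, while over Cdkn2b they were at -1.04 and -0.73. The bins over Bap1 and Nf2 had medians between -0.10 and 0.0034, with single tumors between -0.33 and 0.34 and an SD over tumors of 0.12 to 0.17, beside a bin noise of 0.11 to 0.16, so that a loss of these genes could not be read from the values.

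The windows of most known cancer genes were called in no tumor. Of 19 tumor suppressor genes, 2 had a window gained in a tumor, Fas and Men1, each in B28, and 0 had a lost one. Of 24 oncogenes, Jak2 and Cd274 had a window gained in B28, and that of Ccne1 was lost in 8 tumors through the low bins beside the gene. Over both lists 0.664% of the gene-tumor pairs were gained and 1.33% lost, the latter all at Ccne1, against 0.369% and 0.462% of all pairs of a window and a tumor, and the median over genes was -0.016, against 0.00090 over all windows. The 35 listed genes outside chromosomes 17 and 19 gave no gained call in 490 pairs, with a highest value of 0.10 (Cdk6 in B5). Windows of Trp53 (-0.12 to -0.029), of the Hippo kinase genes Lats1 (-0.060 to 0.0061) and Lats2 (-0.032 to 0.060), of Yap1 and Birc2 (-0.017 to 0.063) and of Myc (-0.051 to 0.083) were called in no tumor.

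For 5 of the tumors, B2, B13, B14, B19 and B28, a column of RNA counts carries the same tumor number, with 16598887 to 21650879 reads each. For each gene the difference of log2(CPM + 1) from the mean of the other 4 tumors was taken, and its median over the genes of a chromosome was set beside the same difference in DNA. The genes had at least 50 counts in each tumor (10454 genes). Of the tissue markers, Msln, which encodes mesothelin, was at 51.5 to 1585 CPM and Wt1 at 48.3 to 312 CPM, both lowest in B28. The mesothelial gene Upk3b was at just 4.33 CPM in B28, with a median of 593 CPM over the 5 tumors.

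In B28 the 397 genes of chromosome 19 were 0.23 higher in mRNA (quartiles -0.31 and 0.87), beside 0.25 in DNA. Of these genes, 253 (63.7%) were higher than the mean of the other 4 tumors. Chromosome 19 was the highest of the 19 chromosomes of B28 on both scales. B28 is part of the mean that each of the other 4 tumors was set against, which lowers their chromosome 19 differences. With B28 left out, a comparison chosen after seeing the data, chromosome 19 was at -0.13 in mRNA and -0.091 in DNA in B2, at 0.15 and 0.032 in B14, at -0.0036 and -0.021 in B19, and at -0.037 and 0.081 in B13. Thus B14 was higher and B2 lower on both scales, while B13, with the highest DNA value of the 4, was not higher in mRNA. The 520 genes of chromosome 6 were 0.12 higher in B14 beside 0.045 in DNA. Against this mean, which holds B28, chromosome 6 was the highest of B14 on both scales. With B28 left out it was at 0.12 in mRNA and 0.043 in DNA, and had rank 2 in mRNA behind chromosome 19. The centred DNA median of B14 itself was 0.081 on chromosome 19 and 0.042 on chromosome 6. With genes of at least 10 counts, and B28 in the mean, the mRNA value of chromosome 6 was 0.083.

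Medians of similar size also stood without a DNA difference of the same sign. The 89 pairs other than those on chromosome 19 and chromosome 6 of B14 ranged from -0.13 to 0.17 in mRNA, with the extremes in B28 for chromosome 17 (0.029 in DNA) and chromosome 18 (-0.0026 in DNA). Over the 19 chromosomes Pearson's r between the scales was 0.57 in B28, 0.62 in B2, 0.41 in B19, 0.26 in B14 and -0.22 in B13, and without chromosome 19 it was -0.087, 0.21, 0.16, 0.72 and 0.34 in the same order. The differences share tumors and the chromosomes share a library, so these r are descriptions. B28 also had the lowest level of the leukocyte genes Ptprc (104 CPM, against up to 219 CPM), Cd3e (0.487 CPM, against up to 16.3 CPM) and Lyz2 (263 CPM, against up to 4346 CPM) among the 5 tumors. The mesothelial genes Upk3b (4.33 CPM, against up to 1328 CPM) and Krt19 (47.0 CPM, against up to 359 CPM) were lowest in B28 as well. The part of these differences in cell content in the size of the DNA or mRNA values was not tested.

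**Figure D5:**
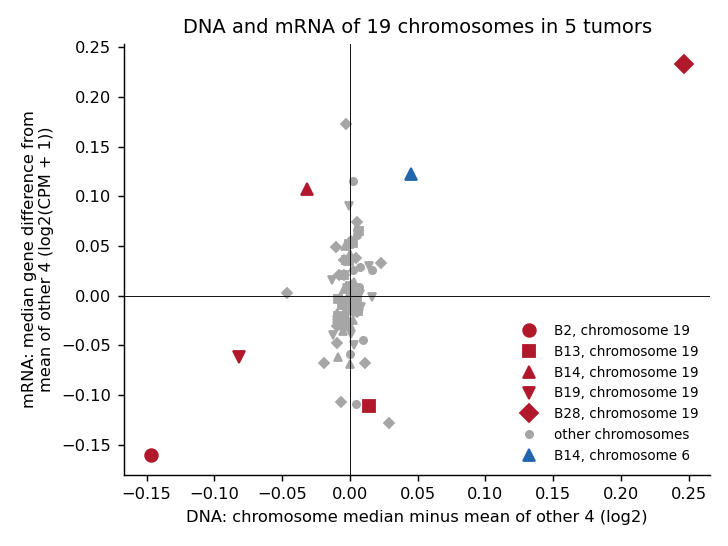
Difference of each chromosome from the mean of the other 4 tumors in DNA (x axis, log2 ratio) and in mRNA (y axis, median over genes of log2(CPM + 1)), for 19 chromosomes in each of 5 tumors; red marks chromosome 19, blue chromosome 6 of B14 and gray the other 89 pairs. Chromosome 19 of B28 lies at 0.25 and 0.23, and that of B2 at -0.15 and -0.16; B28 is part of the mean for each of the other 4 tumors.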

How the data were processed

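Frozen tumors of mice were sequenced at low coverage (single-end reads of 65 bases, TruSeq libraries). The authors aligned reads to mm10 with BWA 7.10, counted them in 20-kb bins with an adapted CopywriteR and corrected for GC content and mappability. They describe log2 ratios to normal tail DNA and name the deposited data log2 read counts. The unit is called other in the unit records because bins without a finite log2 are marked with the value -1073741824. These marked bins (49 to 82 per tumor on the autosomes) were set to missing. The deposited RNA counts are whole reads per gene (TopHat 2.0.12, HTSeq-count, as the authors state). The 10 RNA columns whose tumor or line number matches no DNA column were not used.

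Values were centred per tumor, summarised by medians in 1-Mb windows (114391 bins) and called at 0.2. Chromosomes were tested over the 14 tumors by an exact sign-flip permutation test. P-values measure how far the sum of the tumors' values lies from 0, set against all flips of their signs, with B20 and B21 counted as separate tumors. Both the side and the size of each value count. An offset common to all columns also gives a low p. Genes are placed by GENCODE M21 on GRCm38, the same build as mm10. Named genes were the 4 engineered genes, 19 suppressors (1 further listed gene is not reported here), 24 oncogenes and up to 5 protein-coding genes in order of position per shared stretch, each read from the window holding its midpoint. Tissue and leukocyte markers and the genes of the closing section were chosen after values were seen. The members and lists were chosen with earlier results of these data known. Alternatives were thresholds of 0.1 and 0.3, 5-Mb windows, means of bins, no centring, at least 25 bins, regression on GC, leaving out shared windows and leaving out each tumor. Analyses used Python 3.11.15, pandas, numpy and matplotlib 3.10.9, and were tested on simulated data.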

Additional observations from a re-analysis of the deposited data

How the results depend on the processing

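The median altered share, 0.563% at a threshold of 0.2, was 2.001% at 0.1, 1.10% with means, 0.1996% in 5-Mb windows, 0.170% in windows of at least 25 bins and 0.126% without shared windows. Gained calls (124) became 468 at 0.1 and 63 at 0.3. Lost calls (155) became 537 at 0.1, 304 with means in place of medians, 59 in windows of at least 25 bins, and 42 without the windows shared by 7 or more tumors. Broadly gained or lost chromosomes in at least 2 tumors, 0 at 0.2, were 2 at 0.1, and remained 0 at 0.3, with means, with GC regression and with 25% of a chromosome's windows. The count of chromosomes whose median differed from 0, 9 of 19 (2 higher), was 13 without centring (6 higher), 11 after GC regression (5 higher), 8 without shared windows (2 higher), 10 with B20 and B21 averaged (chosen after seeing the data) and between 9 and 11 when each tumor was left out in turn. The mRNA value of chromosome 19 in B28 was 0.27 with a minimum of 10 counts and 0.23 in protein-coding genes. No paired analysis was possible because the DNA columns carry neither a genotype nor a replicate number. A change shorter than 500 kb covers too few bins of a full window to set its median, and tumor cell share, ploidy and read depth were not known.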

Other observations

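A finer scan, chosen after seeing the data, took stretches of at least 5 bins in which the running median over 5 bins differed by 0.5 or more from the median of the other 13 tumors. It gave 93 stretches at 39 loci, 1 to 15 per tumor (median 6), 48 higher and 45 lower, none longer than 45 bins. Of the loci, 20 were met in 2 or more tumors, and 16 of the 39 hold no protein-coding gene. B20 and B21, which carry the same animal number, had 4 and 5 such loci and shared 4. All 5 loci of B2 were also met among the 13 of B5, a tumor of another animal. Over windows outside chromosomes 17 and 19, B20 and B21 had the rank 7 correlation of 91 pairs (r = 0.16, 2248 windows), behind pairs of different animals such as B2 and B14 (r = 0.66). The Skint windows were kept in these r. Ranks 1 to 3 are the pairs among B2, B5 and B14, the tumors lowest at Skint. Ranks 86 to 91 pair these with B25 and B31, the tumors highest there. How far the Skint stretch sets the ranking was not tested. The loci shared by B20 and B21 include a stretch of chromosome 10 over 4930444G20Rik and E030030I06Rik that was also lower in B2, B5 and B23 and higher in B25 and B28.

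Stretches far from the other tumors were read in B25 and B26. In B25 chr7:47640001-47960000, with no protein-coding gene, was at -4.49, and parts of it were at -1.11 to -0.87 in B5, B20, B21 and B23. In B26 chr11:71160001-71320000, over Nlrp1b, an inflammasome gene, was at -3.30, and no other tumor met the rule of the scan there. B25 was also low over the interferon-induced genes Ifi214, Ifi213, Ifi209 and Ifi208 of chromosome 1 (-1.47; B26 was at -0.70 over part of it), and B25, B28 and B31 over Ear2 or its neighbours on chromosome 14 (-1.28 to -1.06). In B31 5 bins of chromosome 19 over Ide and Kif11 (chr19:37240001-37380000) were at 1.20, while the other 13 tumors were at -0.085 to 0.72 with a median of 0.59. These values do not separate inherited from acquired differences.

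The antigen receptor loci, whose segments are cut and joined in lymphocytes, were below 0 in most tumors, by little in some. The median over the bins of the T cell receptor alpha and delta loci (chromosome 14) ran from -0.16 in B31 to -0.023 in B26, that of the immunoglobulin heavy chain locus (chromosome 12) from -0.15 to -0.0077, and that of the immunoglobulin kappa locus (chromosome 6) from -0.095 to -0.022, each below 0 in 14 of 14 tumors, as were 4.67% of all 1-Mb windows. The T cell receptor beta locus ran from -0.12 to 0.020, below 0 in 13, and 9.67% of all 1-Mb windows were below 0 in 13 or 14 tumors. The loci are not 1 Mb long, so these shares are a rough background. The lymphocyte content of the tumors was not measured, and whether tail DNA enters these values is not known.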
